A study of Mus musculus with 5 samples.

Results

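The mevalonate arm of cholesterol synthesis was followed in cells of mouse pancreatic tumours through 9 enzymes: Acat2, Hmgcs1, Mvk, Pmvk, Mvd, Idi1, Fdps, Fdft1 and Ggps1. They were chosen by gene name, with earlier results of these data already known. All 9 were among the 12579 genes present in both deposited tables, and all 9 passed the filter on low counts in every population compared. KPPC mice develop pancreatic carcinoma from engineered alleles, among them loss of both Trp53 copies, under Pdx1-Cre, which acts in the lineage that forms the pancreas, so that fibroblasts, vessels and mesothelium of the host keep their genes. KPPCN mice carry the same alleles and also lack Nsdhl, a sterol dehydrogenase late in the pathway, in that lineage. These alleles are given as the model is generally known, since the labels name the groups without them. The tumours were advanced, came from mice 7 to 8 weeks old, and were depleted of dead and CD45-positive cells before droplet RNA sequencing from the 3′ end of transcripts. The values rest on 3 KPPC libraries, coded C3, D3 and H2, and on 2 KPPCN libraries, coded 1 and 2, each taken as 1 tumour.

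The arm turns acetyl-CoA into isoprenoid units and joins them into squalene, the precursor of all sterols. Acat2 (here the cytosolic acetoacetyl-CoA thiolase) and Hmgcs1 build HMG-CoA, which is then reduced to mevalonate. Mvk and Pmvk phosphorylate mevalonate, Mvd decarboxylates it to isopentenyl diphosphate, and Idi1 interconverts that unit with dimethylallyl diphosphate. Fdps makes farnesyl diphosphate, where the path divides: Fdft1, squalene synthase, commits it to sterols, and Ggps1 extends it to geranylgeranyl diphosphate, used to prenylate small GTPases. SREBP-2, the transcription factor released when membrane sterol falls, is known to raise most genes of the sterol route together, through sterol response elements that often lie near CCAAT and GC boxes.

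The genes lie on 6 chromosomes of GRCm38 (GENCODE M21). Hmgcs1 (ENSMUSG00000093930) spans 119690379 to 119708260 on chromosome 13, Idi1 (ENSMUSG00000058258) 8885501 to 8892451 and Ggps1 (ENSMUSG00000021302) 14050659 to 14063488 on the same chromosome. Pmvk (ENSMUSG00000027952) spans 89454541 to 89469013 and Fdps (ENSMUSG00000059743) 89093588 to 89101959 on chromosome 3. Mvk (ENSMUSG00000041939) spans 114444269 to 114460591 on chromosome 5, Mvd (ENSMUSG00000006517) 122433601 to 122443422 on chromosome 8, Fdft1 (ENSMUSG00000021273) 63145150 to 63179578 on chromosome 14 and Acat2 (ENSMUSG00000023832) 12942890 to 12960747 on chromosome 17. Reads of Fdps are uncertain where the same-strand transcript model Gm43738 overlaps it, and those of Acat2 could be shared with its tandem relative Acat3, which stood at 0 to 11.8 CPM in the epithelial-like, fibroblast-like, mesothelial-like and Cdkn2a Hmga2 cells described below. The last exons of Fdft1 and Ctsb overlap on opposite strands, as do the starts of Ggps1 and Arid4b, and the sources used here do not give whether strand was used in counting.

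Because most of these genes are known to be read out together, the 150 bases before the start of transcription are shown for 4 enzymes whose window touches no annotated exon (RefSeq, GRCm38.p6, 5′ to 3′ on the gene's strand). Capitals mark the sterol response element core TCACNCCAC, the CCAAT box CCAAT and the GC box GGGCGG, each searched on both strands. The windows are chr13:119690201-119690350 on the plus strand for Hmgcs1, chr5:114444119-114444268 on the plus strand for Mvk, chr3:89454391-89454540 on the plus strand for Pmvk and chr8:122443423-122443572 on the minus strand for Mvd.
Hmgcs1: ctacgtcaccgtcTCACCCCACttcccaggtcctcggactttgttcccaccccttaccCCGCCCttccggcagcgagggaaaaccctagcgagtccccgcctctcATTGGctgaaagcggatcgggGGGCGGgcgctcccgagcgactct
Mvk: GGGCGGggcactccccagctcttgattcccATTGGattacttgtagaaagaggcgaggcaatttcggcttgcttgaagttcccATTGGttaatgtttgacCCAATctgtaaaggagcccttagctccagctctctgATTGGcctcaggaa
Pmvk: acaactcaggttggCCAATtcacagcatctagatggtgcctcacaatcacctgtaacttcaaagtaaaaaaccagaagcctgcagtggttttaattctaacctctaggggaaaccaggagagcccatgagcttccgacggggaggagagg
Mvd: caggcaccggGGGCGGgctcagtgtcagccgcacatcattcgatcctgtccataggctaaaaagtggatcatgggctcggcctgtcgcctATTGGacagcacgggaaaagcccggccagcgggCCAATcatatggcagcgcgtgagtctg
Hmgcs1 held the sterol response element core as TCACCCCAC, starting 137 bases before its start, with a reversed GC box at 92, a reversed CCAAT box at 45 and a forward GC box at 24 bases. Of the 7 enzymes with an entry in the RefSeq promoter table (windows of 250 bases before to 50 after the start), Hmgcs1 was the only 1 with that core, which 1.242% of 32851 mouse promoter windows held. CCAAT boxes were found in 6 of the 7, against 37.408% of all windows, and Mvk held 5 of them, 4 within the stretch shown. GC boxes were found in 5 of the 7, against 35.658% of all windows. A gene counted when any of its windows matched, while the percentages count single windows. Pmvk had a further window without a CCAAT box. Ggps1 held 3 CCAAT boxes and no GC box, and Acat2 held 1 GC box and no CCAAT box. These are matches of letters, and no binding was measured.

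After filtering, 16455 of 17771 cell barcodes were used, 1985 to 5147 per library, and 27 barcode sequences occurred in more than 1 library. Totals ran from 25746317 to 77088231 UMIs (unique molecular identifiers, each standing for 1 captured transcript). KPPCN 1 stood apart: its median depth was 2175 UMIs per cell against 17204 to 21593 in the other libraries. In its cells as a whole Igkc, an antibody light chain gene, reached 8695 CPM against 0 to 42.1 CPM elsewhere. Cells were grouped without using 57 cholesterol genes, among them these 9, and groups were named from marker genes. The KPPC codes do not match the sample numbers of the labels, so a replicate processed in parallel could not be entered in any test, and genotype and table cannot be told apart because each genotype has its own table.

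Nsdhl, the gene lacking in KPPCN, stood at 31.2, 23.1 and 28.5 scaled CPM (UMIs per 1000000 after trimmed-mean scaling between libraries) in the epithelial-like cells of C3, D3 and H2, and at 31.8 and 33.1 scaled CPM in those of KPPCN 1 and 2. Both KPPCN values lay just above the highest KPPC value, C3, and the difference of 0.21 log2 units (SE 0.20, limma, adjusted p = 0.706) did not pass. The sources used here do not give the part of Nsdhl that was removed, and a 3′ tag outside it checks nothing, so KPPCN below means the libraries labelled so.

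Epithelial-like cells held the most transcripts of the arm. In CPM (UMIs of a gene per 1000000 UMIs of that class in that library), the 9 enzymes together came to 536, 431 and 557 in the KPPC libraries, in the order C3, D3 and H2 kept below, and to 689 and 1000.3 in KPPCN 1 and 2. Fibroblast-like cells, named from Dcn, Lum and collagens, came to 151, 222 and 228 CPM in KPPC and to 159 and 130 CPM in KPPCN, so that the epithelial-like sum was 1.94 to 7.72 times the fibroblast-like sum within a library. Clusters with both Cdkn2a and Hmga2 among their top 10 genes, which no marker class named, lay between them (Cdkn2a Hmga2 clusters), with sums of 274, 250.5 and 352 CPM in KPPC against 475 and 409.9 CPM in KPPCN. Intervals for counting error alone (exact Poisson, 95%) were narrow for the KPPC epithelial-like sums, 524 to 548 in C3, and wider in KPPCN, 637 to 744 in KPPCN 1 and 928 to 1076 in KPPCN 2.

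**Figure D1:**
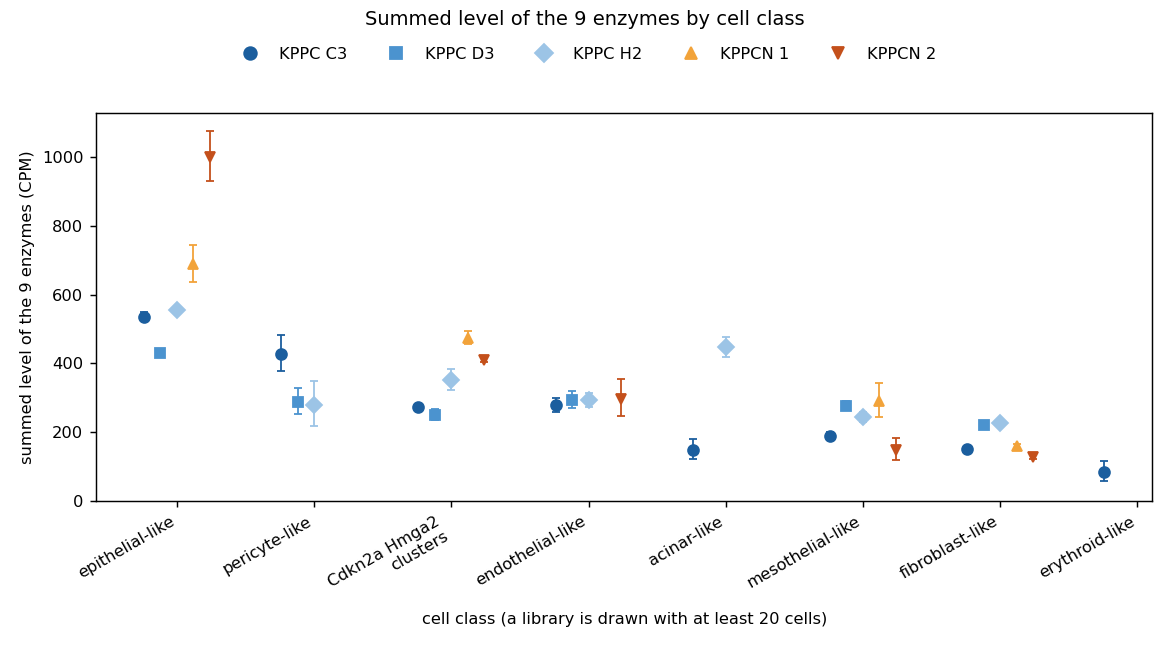
Summed level of the 9 enzymes in CPM (y axis) by cell class (x axis), 1 point per library with at least 20 cells of the class; bars are exact Poisson 95% intervals for counting error. The epithelial-like points are the highest class in each of the 5 libraries, from 431 to 1000.3 CPM.

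Among the 6 classes with all 3 KPPC libraries, the order of the mean sums was epithelial-like (508 ± 67.6 CPM, SD, n = 3), pericyte-like (332 ± 83.4), Cdkn2a Hmga2 clusters (292 ± 53.2), endothelial-like (288 ± 8.11), mesothelial-like (237 ± 44.8) and fibroblast-like (201 ± 42.6). Epithelial-like libraries only just cleared those of the next class, with a lowest sum of 430.6 CPM against a highest of 428.2 CPM. The pericyte-like sums rest on 35, 65 and 20 cells. Pericyte-like cells, Cdkn2a Hmga2 clusters and endothelial-like cells overlapped along this order, and so did mesothelial-like and fibroblast-like cells. Classes come from the same cells that are described, so no test was made between them. The 1 library with erythroid-like cells stood lowest, at 84.8 CPM.

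Single enzymes departed from that order. Epithelial-like cells had the highest KPPC mean for 6 of the 9 enzymes: Acat2, Hmgcs1, Mvd, Idi1, Fdps and Fdft1. Mvk, the first kinase, was highest in pericyte-like cells, at 26.3 ± 3.89 CPM (SD, n = 3) above epithelial-like cells, which were second, with overlap between their libraries. Pmvk, the second kinase, was highest in endothelial-like cells, at 51.0 ± 19.2 CPM against 47.7 ± 9.71 in pericyte-like and 46.3 ± 6.91 in epithelial-like cells, again with overlap. Ggps1, the branch enzyme towards geranylgeranyl diphosphate, had another order: it was highest in endothelial-like cells at 44.8 ± 1.81 CPM, above every library of the next class, while epithelial-like cells (23.7 ± 1.41) and fibroblast-like cells (24.1 ± 0.815) overlapped. Within libraries the epithelial-like level exceeded the fibroblast-like level in 5 of 5 libraries for each of the other 8 enzymes, and in 1 of 5 for Ggps1.

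The study's comparison asks what loss of Nsdhl goes with in these tumours. In epithelial-like cells 8 of the 9 enzymes had a higher mean in KPPCN, against 49.6% of all genes tested, and Ggps1 had a lower mean, but no enzyme passed the test. Levels from here on are scaled CPM, that is CPM after trimmed-mean scaling between libraries, and a difference is KPPCN minus KPPC on the log2(CPM + 5) scale, which understates changes of genes at low levels. For 7 of the 9 enzymes KPPCN 1 and 2 both exceeded every KPPC library, as they did for 15.9% of all genes, and for Ggps1 alone both lay below, as for 17.6%. The median difference of the 9 was 0.59, against -0.0032 over all 12153 genes. This rests on few KPPCN cells, 88 and 40, against 610, 947 and 723 in KPPC.

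At the head of the arm, Acat2 stood at 31.8, 27.8 and 32.0 in KPPC and at 39.2 and 63.5 in KPPCN. Both KPPCN values lay above the KPPC values, which were close to each other, and the difference was 0.61 log2 units (SE 0.21, limma, adjusted p = 0.379). Hmgcs1, the HMG-CoA synthase, stood at 114, 75.6 and 113 in KPPC and at 126 and 186 in KPPCN. KPPCN 1 was close to the higher KPPC libraries and KPPCN 2 well above them, and the log2 difference came to 0.59 (SE 0.26, adjusted p = 0.427). Of the enzymes acting on mevalonate itself, Mvk stood at 25.1, 18.3 and 20.8 in KPPC and at 27.5 and 26.4 in KPPCN. It differed least of the 8 enzymes with a higher mean, by 0.29 with an SE of 0.20 (adjusted p = 0.601). Pmvk stood at 52.5, 38.0 and 50.8 in KPPC and at 74.2 and 104.4 in KPPCN. With 0.84 (SE 0.22, adjusted p = 0.379) it had the largest difference of the 9, from a mean of 47.1 ± 7.94 (SD, n = 3) to 89.3 ± 21.4 (SD, n = 2). Mvd, the decarboxylase, stood at 28.6, 19.3 and 26.3 in KPPC and at 32.8 and 46.3 in KPPCN, a log2 difference of 0.57 with an SE of 0.24 (adjusted p = 0.427).

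Downstream, the isomerase Idi1 stood at 34.9, 26.4 and 32.7 in KPPC and at 31.8 and 56.8 in KPPCN. KPPCN 1 lay inside the KPPC range, so the groups overlapped, and the log2 difference came to 0.38 (SE 0.25, limma, adjusted p = 0.577). Fdps, which makes farnesyl diphosphate, stood at 172, 142 and 208 in KPPC and at 245 and 337 in KPPCN. No library overlapped here, and the difference came to 0.72 (SE 0.22, adjusted p = 0.379). Fdft1, the squalene synthase, stood at 67.1, 53.6 and 66.1 in KPPC and at 98.5 and 109.7 in KPPCN. Here the KPPCN libraries lay closer to each other than to any KPPC library, with a difference of 0.70 and the second smallest SE of the 9, 0.17 (adjusted p = 0.379). Ggps1 lay the other way, at 22.7, 24.6 and 25.0 in KPPC and at 19.1 and 18.5 in KPPCN, with a difference of -0.29 (SE 0.16, adjusted p = 0.517). By limma 0 of 12153 genes passed in these cells (0%), and 1428 (11.8%) had an unadjusted p under 0.05, 4 of the 9 enzymes among them.

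**Figure D2:**
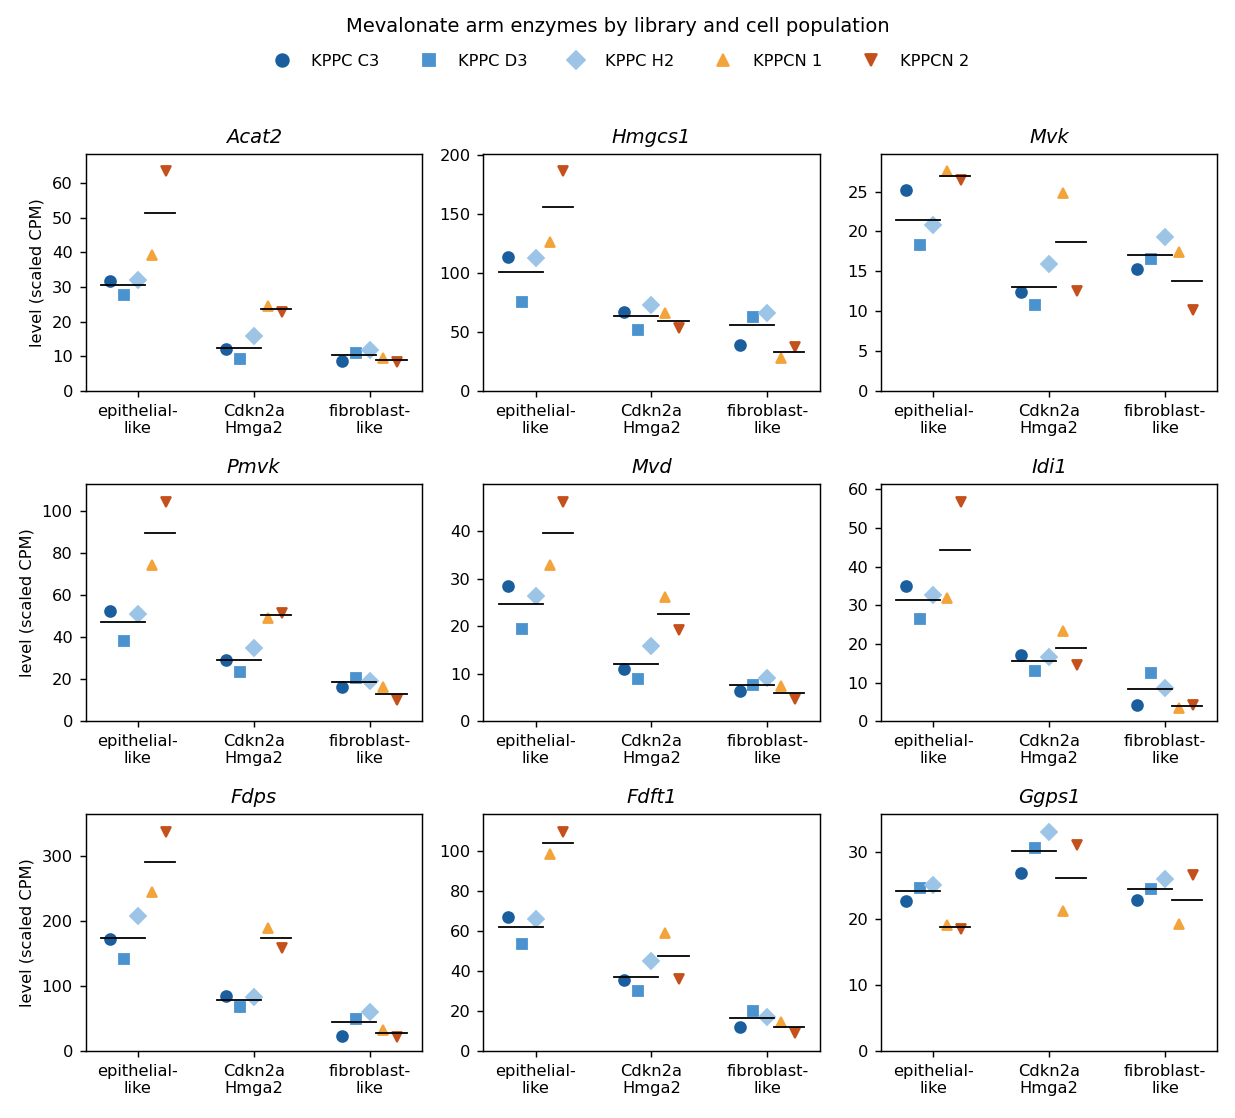
Level of each enzyme in scaled CPM (y axis, from 0) in 3 cell populations (x axis), 1 point per library, with horizontal lines at the KPPC and KPPCN means. In epithelial-like cells KPPCN 2 is the highest library for 7 of the 9 enzymes, and for Ggps1 both KPPCN libraries lie lowest.

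Whether KPPCN 1 stood above KPPC depended on how cells were weighted. Summed UMIs give deep cells more weight, and in that sum the epithelial-like cells of KPPCN 1 came to 689 CPM. With each cell weighing the same, and without scaling between libraries, the 9 enzymes came to 480, 405 and 516 CPM in KPPC, to 425 CPM in KPPCN 1, inside the KPPC range, and to 921 CPM in KPPCN 2. Both KPPCN libraries then lay above KPPC for 1 of the 9 enzymes (18.5% of genes), while KPPCN 2 taken alone lay above for 9 (41.8% of genes). With each cell thinned to 1000 UMIs the sums were 425, 436 and 492 CPM in KPPC and 430.2 and 897 CPM in KPPCN, the latter from only 37 and 35 UMIs of the 9 enzymes, after 7, 36 and 7 KPPC cells and 2 and 1 KPPCN cells with fewer UMIs were left out. Both KPPCN libraries lay above KPPC for 3 of the 9 when thinned (13.4% of genes) and KPPCN 2 taken alone for 7 (34.5% of genes). A single UMI was then worth 11.6 and 25.6 CPM in KPPCN. The higher epithelial-like level was therefore common to the 3 weightings in KPPCN 2 only. Beside this, the epithelial-like cells of KPPCN 1 held 6209.5 UMIs per cell at the median against 18073 to 18530 in KPPC and 13718.5 in KPPCN 2. They also held Igkc at 643 CPM (0 to 10.3 in the other libraries), Epcam at 645 CPM (1326 to 1840 in KPPC, 1446 in KPPCN 2) and Vim at 983 CPM (282 to 417 elsewhere). Of the leukocyte genes Ptprc, Cd79a and Cd3e they held 16, 23 and 8 UMIs, and those of KPPCN 2 held 0, 0 and 0. The sum of 10 cell cycle genes was 268, 313 and 261 CPM in the epithelial-like cells of KPPC and 239.8 and 174 CPM in those of KPPCN. The part of depth, of leukocyte RNA and of cycling in the result was not tested. In KPPCN 2, 2 of the 40 cells drew over 1% of their UMIs from the endocrine markers Ins1, Ins2 and Iapp, at least 22.63% in each, while the 12 such cells of KPPC had been left out as doublets. Without these cells the sum of KPPCN 2 was 1023 CPM and the median difference of the 9 was 0.60. Both KPPCN libraries then lay above KPPC in CPM for 6 enzymes in place of 7. With the cells in, 19.1% of genes did so in CPM, and without them the share of genes was not computed.

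**Figure D3:**
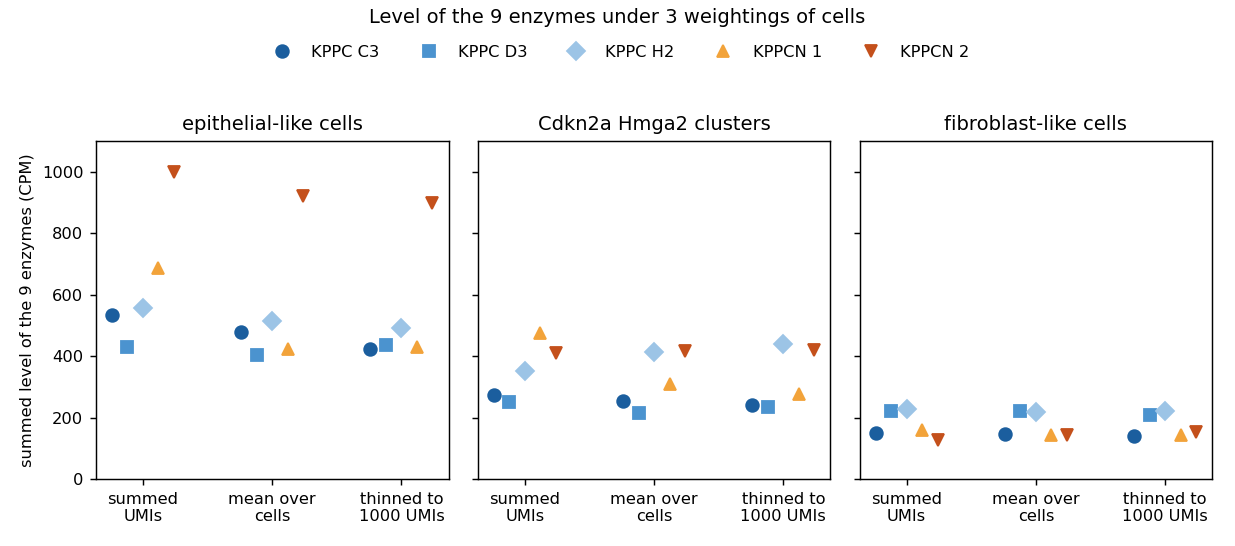
Summed level of the 9 enzymes in CPM (y axis) in 3 populations under 3 weightings of cells (x axis), 1 point per library. In epithelial-like cells KPPCN 2 stays between 897 and 1000.3 CPM under all 3, and KPPCN 1 moves from 689 CPM into the KPPC range.

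Within the epithelial-like class, cluster 2, led by Epcam, and cluster 9, led by the gastric mucosal gene Tff2, held most cells. The 9 enzymes came to 447, 397 and 535 CPM in cluster 2 of the KPPC libraries and to 604, 478 and 594 CPM in their cluster 9, so that cluster 9 was higher in each of these libraries. In KPPCN 1 the order in summed UMIs was opposite, with 863 CPM in cluster 2 (52 cells) and 528 CPM in cluster 9 (36 cells). KPPCN 2 had 1003 CPM in cluster 2 (28 cells) and 984 CPM in cluster 9, from 10 cells. With each cell weighing the same, cluster 2 of KPPCN 1 came to 404 CPM (389, 388 and 501 in KPPC). Thinned to 1000 UMIs per cell, it came to 300 CPM (366, 461 and 495 in KPPC). Cluster 9 was not read under these weightings. Acat2 and Mvd were higher in cluster 9 than in cluster 2 in 4 of the 4 libraries with at least 20 cells of both. In cluster 2 alone, a comparison added after its values had been seen, both KPPCN libraries lay above KPPC for 8 of the 9 enzymes (15.7% of genes). The median difference was 0.96, from 0.82 in Mvd to 1.24 in Pmvk among these 8, which also had the higher means (46.9% of genes). Ggps1 lay below in both KPPCN libraries (20.1% of genes), by -0.42 (SE 0.20). With each cell weighing the same, both KPPCN libraries exceeded KPPC for 4 of the 9 (16.4% of genes), and thinned to 1000 UMIs for 2 (11% of genes), with KPPCN 2 taken alone above for 9 (40.5%) and 7 (32.1%). Cluster 2 also held the 2 KPPCN 2 cells rich in endocrine markers, without which its median difference was 0.93. No enzyme passed here either (lowest adjusted p = 0.254, limma).

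The Cdkn2a Hmga2 clusters held 488, 142 and 69 cells in KPPC and 283 and 1437 in KPPCN. Vim, of mesenchymal cells, stood at 3276 to 5307 CPM in all 5 libraries, and the keratin Krt18 at 2314 to 3295 CPM in 4 of them but at 539 CPM in KPPCN 2. Of the 9 enzymes 7 had a higher mean in KPPCN (53.7% of genes), 4 lay above all KPPC libraries (12% of genes), none below (9.09% of genes), and the median difference was 0.35 against 0.025 over all genes. Fdps stood at 85.0, 67.6 and 84.0 scaled CPM in KPPC, against 190.1 and 158 in KPPCN. That was the largest difference of the 9 in these clusters, 1.09 log2 units (SE 0.21, limma, adjusted p = 0.651), with KPPCN 1 and 2 both far above the highest KPPC library. Acat2 stood at 12.1, 9.19 and 15.9 in KPPC and at 24.4 and 22.9 in KPPCN, a difference of 0.76 with an SE of 0.22 (adjusted p = 0.724). Pmvk (0.73, SE 0.22) and Mvd (0.73, SE 0.24) were the other enzymes without overlap. Hmgcs1 did not share this: at 67.2, 51.8 and 72.6 in KPPC and 65.8 and 53.3 in KPPCN its difference was -0.09 with an SE of 0.22.

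No gene of 11332 passed by limma in these clusters (0%), and 742 (6.55%) had an unadjusted p under 0.05, 4 of the 9 enzymes among them. KPPCN 1 held 11352 UMIs per cell at the median here, against 17612 to 24344 in the other libraries, and 70, 159 and 21 UMIs of Ptprc, Cd79a and Cd3e against 3, 13 and 0 in KPPCN 2, whose part was not tested. Different clusters made up the population in each library. Clusters 7 and 3 were led by Cdkn2a, cluster 17 by Hmga2 and cluster 23 by Flt1. Cluster 7 held 236 of the 283 cells in KPPCN 1, whereas clusters 23, 17 and 3 held 782, 336 and 316 cells in KPPCN 2 and clusters 7 and 3 held 227 and 217 cells in C3. Within cluster 7 the sum of the 9 was 252, 249 and 345 CPM in KPPC and 430.5 CPM in KPPCN 1. Within cluster 17 it was 298 and 267 CPM in KPPC C3 and D3 and 666 and 464 CPM in KPPCN 1 and 2. With each cell weighing the same the sums over these clusters were 256, 216 and 416 CPM in KPPC and 310.3 and 416 CPM in KPPCN, which overlap. Thinned to 1000 UMIs per cell they were 243, 234 and 441 CPM in KPPC and 277 and 421 CPM in KPPCN. Both KPPCN libraries lay above KPPC for 3 of the 9 enzymes with each cell weighing the same (17.7% of genes), and for 1 when thinned (14.6% of genes).

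Fibroblast-like cells showed lower means in KPPCN for 9 of the 9 enzymes, where 51.8% of genes had a higher mean, again with none past the test. The median difference was -0.35 against 0.011 over all genes, and 2 enzymes lay below all KPPC libraries (12.3% of genes). Hmgcs1 stood at 38.8, 62.8 and 66.5 scaled CPM in KPPC, against 27.8 and 37.6 in KPPCN. Its higher KPPCN value lay just under that of C3, and the log2 difference came to -0.68 (SE 0.26, limma, adjusted p = 0.733). Pmvk, the other enzyme without overlap, stood at 16.3, 20.5 and 19.0 in KPPC and at 16.2 and 9.83 in KPPCN (-0.40, SE 0.19). Fdps ranged widely within KPPC, at 24.3, 49.3 and 61.0, and stood at 33.4 and 22.5 in KPPCN. Idi1 was near the floor of the scale at 4.17, 12.4 and 8.47 in KPPC and 3.40 and 4.31 in KPPCN. C3 was the lowest KPPC library for 9 of the 9 enzymes and lay between the KPPCN values for 7 of them. Of 12155 genes 0 passed (0%), and 748 (6.15%) had an unadjusted p under 0.05, 1 of the 9 enzymes among them. The fibroblast-like cells of KPPCN 1 held 4003 UMIs per cell at the median against 17765 to 19709.5 in the other libraries. Of Ptprc, Cd79a and Cd3e they held 235, 419 and 73 UMIs, against 0, 1 and 0 in KPPCN 2, and Igkc stood at 839.9 CPM against 0 to 13.1 CPM elsewhere. The part of depth and of leukocyte RNA in the lower means was not tested. The clusters behind the class differ: 1233 of the 1633 cells of KPPCN 1 belonged to cluster 1, which no other library filled with 20 cells. In cluster 0 alone, led by Dpt and present in every library, the median difference was -0.33, with 1 of the 9 enzymes at an unadjusted p under 0.05 (4.45% of genes).

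Whether the genotype difference itself differed between the classes was tested on the gap between epithelial-like and fibroblast-like cells within each library, which removes what a library adds to both. For Fdps the gap was 2.60, 1.44 and 1.69 log2 units in KPPC, against 2.70 and 3.64 in KPPCN. The widest KPPC gap, that of C3, stayed just under that of KPPCN 1. For Hmgcs1 it was 1.44, 0.25 and 0.72 in KPPC, against 2.00 and 2.17 in KPPCN. For Pmvk it was 1.43, 0.75 and 1.22 in KPPC, against 1.90 and 2.88 in KPPCN. The gap was wider in KPPCN for 8 of the 9 enzymes (48.1% of genes), and both KPPCN libraries lay above KPPC for 7 (11.9% of genes). KPPC C3 came close to KPPCN 1 for several of them: for Idi1 it was 2.12 against 2.13, and for Mvd 1.58 against 1.60. All gaps given here rest on summed UMIs. With each cell weighing the same, the 9 enzymes in C3 came to 480 CPM in epithelial-like and 147 CPM in fibroblast-like cells. KPPCN 1 then came to 425 and 145 CPM, a smaller ratio than that of C3, and KPPCN 2 to 921 and 144 CPM. The differences of the gaps were 1.27 (SE 0.34) for Hmgcs1, 1.24 (SE 0.40) for Fdps, 1.22 (SE 0.33) for Pmvk and 1.04 (SE 0.32) for Fdft1, each with an adjusted p of 0.739 (limma). Mvk overlapped at 0.52 with an SE of 0.27, and Ggps1 had gaps from -0.42 to 0.00 in every library. None of 11766 genes passed (0%), 740 (6.29%) had an unadjusted p under 0.05, and 6 of the 9 enzymes were among the latter. For the Cdkn2a Hmga2 clusters against epithelial-like cells 0 of 11225 genes passed (0%), and 875 (7.8%) had an unadjusted p under 0.05, 1 of the 9 enzymes among them. The 9 had a median of 0.10 there, with 5 positive (54.4% of genes) and 4 negative values.

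**Figure D4:**
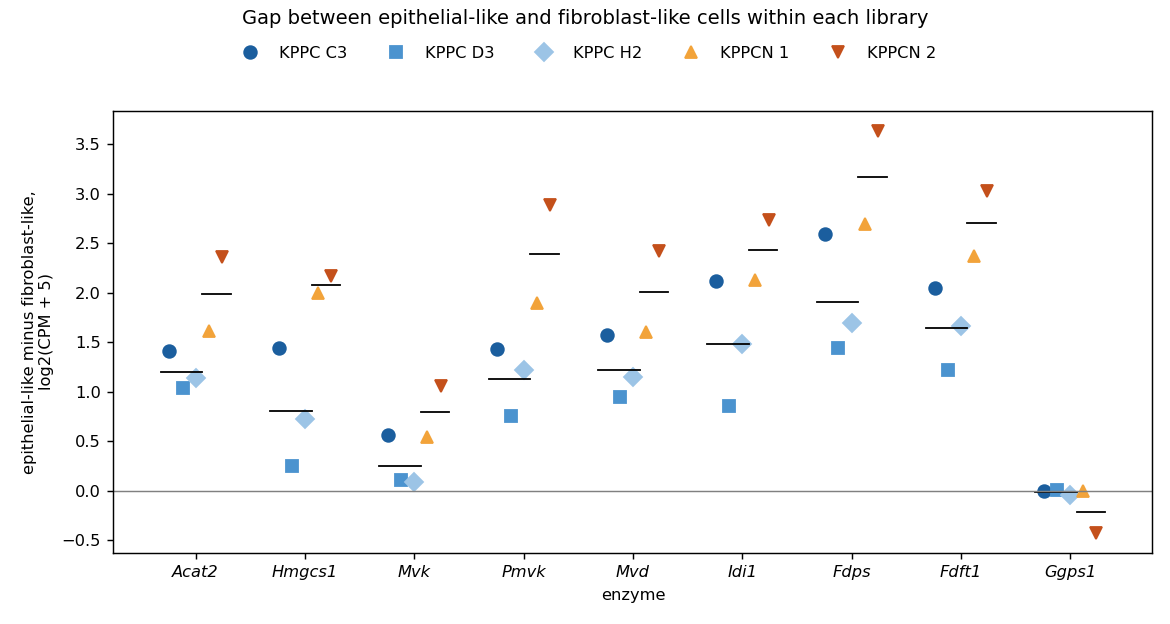
Difference between epithelial-like and fibroblast-like cells within each library on the log2(CPM + 5) scale (y axis) for each enzyme (x axis), 1 point per library, with lines at the KPPC and KPPCN means. KPPCN 2 has the widest gap for 8 of the 9 enzymes, and the gaps of Ggps1 lie between -0.42 and 0.00.

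In mesothelial-like cells the 9 enzymes showed no common direction, with 2 higher (47.2% of genes) and 7 lower means in KPPCN and a median of -0.14. KPPCN held only 39 and 22 such cells, and its libraries disagreed: the sum of the 9 was 291 CPM in KPPCN 1 and 150 CPM in KPPCN 2, on either side of the KPPC values of 189, 277 and 244 CPM. None of the enzymes was among the 6 of 11309 genes that passed (0.0531%; 0.0177% higher and 0.0354% lower), and Pmvk alone lay below all KPPC libraries (19.1% of genes). Over all cells of a library together, 5 means were higher (54.5% of genes) and 4 lower in KPPCN, and the median of 0.042 was close to that of all genes, 0.040. Both KPPCN libraries lay above KPPC for Pmvk alone (18.5% of genes) and below for Hmgcs1 and Idi1 (17.7% of genes). Hmgcs1 stood at 60.6, 69.5 and 80.7 scaled CPM in KPPC, against 43.7 and 53.6 in KPPCN, a difference of -0.48 (SE 0.18, limma, adjusted p = 0.301). Of 12558 genes 1 passed (0.00796%), no enzyme of the arm. Over all cells a different mix of cell types and a different level per cell cannot be told apart.

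Most of the enzymes varied together across classes and libraries, to unequal degrees. Over 43 sums of a library and a class, from 15 classes that share libraries and depth, Pearson's r between pairs of the 9 on the log2(CPM + 5) scale had a median of 0.511, from -0.052 to 0.839, over 36 pairs. Idi1 and Fdft1 were the closest pair at 0.839, followed by Mvd and Fdps at 0.815. Against the mean of the other 8, Fdps reached 0.875, Mvd 0.859, Idi1 0.826, Fdft1 0.763 and Hmgcs1 0.762, while Acat2 reached 0.480 and Ggps1 0.234. The median r of all other genes at 10 CPM or more on average with the mean of the 9 was 0.257. The 0.234 of Ggps1, read against the mean of the other 8 and not of all 9, was close to that value. Of 8685 other genes at 10 CPM or more on average, those most like the mean of the arm included Sqle (0.869), Msmo1 (0.855), Mrpl11 (0.837), Chchd2 (0.824), Cyp51 (0.784), Hsd17b7 (0.776), Mrpl34 (0.757) and Brms1 (0.756). Sqle, Msmo1, Cyp51 and Hsd17b7 encode enzymes that act after the squalene step. Mrpl11 and Mrpl34 encode mitochondrial ribosomal proteins, which are not part of this pathway. Nsdhl ranked 17 at 0.740.

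The rest of the pathway was read in the same epithelial-like cells, where no gene of any list passed. Of 11 post-squalene enzymes 10 had a higher mean in KPPCN (49.6% of genes), with a median difference of 0.30, and for 4 both KPPCN libraries lay above KPPC (15.9% of genes). Cyp51, the lanosterol demethylase, stood at 81.6, 61.2 and 90.9 scaled CPM in KPPC, against 103.8 and 155 in KPPCN (0.67, SE 0.24). Of 11 genes for sterol sensing and uptake 8 were higher, with a median of 0.21. Of 7 export and LXR target genes 3 were higher, and of 15 users of isoprenoids, such as the farnesyl and geranylgeranyl transferases, 5 were higher with a median of -0.11. Of 10 cell cycle genes 1 was higher, with a median of -0.47, all read against the 49.6%. Within cluster 2 alone 4 of these 10 were higher (46.9% of genes), with a median of -0.012. In fibroblast-like cells, where 51.8% of genes had a higher mean, 1 of the 11 post-squalene enzymes was higher in KPPCN, with a median of -0.41, and so were all 10 cell cycle genes, with a median of 0.25. For 3 of these 10 both KPPCN libraries lay above KPPC (13.2% of genes). The sum of the 10 was 221, 179 and 170 CPM in KPPC, 382 CPM in KPPCN 1 and 197 CPM in KPPCN 2, the last inside the KPPC range.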

How the data were processed

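Droplet RNA libraries of 3 KPPC and 2 KPPCN tumours were used. The submitters' processing notes list GRCm38, Seurat 3.0.2, R 3.5.1 and Cell Ranger 2.1.0, without roles. The authors deposited 1 table per genotype, and its values behave as the natural log of 1 plus UMIs per 10000, since every cell summed to 10000. UMIs were recovered from the smallest step of each cell (100% whole within 0.01 UMI). KPPC values covered 12579 genes, each in at least 37 cells, and KPPCN values 31053 genes. The 12579 shared genes, with 99.3% of the KPPCN UMIs, were tested, so genes absent from the KPPC table were not.

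Barcodes under 500 genes or over 20% mitochondrial UMIs were dropped (733 barcodes of KPPCN 1 and 68 of KPPCN 2). Of the cells scored highest against simulated doublets, 0.8% per 1000 cells of a library, 515 in all, were left out. Cells were clustered with scanpy 1.11.5 (2000 variable genes, 30 principal components, 20 neighbours, Leiden at resolution 1; 0.5 and 2 as alternatives), without integration. Only classes with 3 markers raised 2-fold over the median cluster were ranked, and a cluster took the first of these when its marker score reached 1.5 and led the next ranked class by 0.5, with 1 marker among its top 10 genes. The epithelial-like cluster 2 (score 4.182) scored higher on endocrine markers (6.678), which were not ranked because 2 of their 3 genes were raised. The score rule and its reference were set after the clusters had been seen. Against all other cells as reference, fewer clusters met the Cdkn2a Hmga2 rule.

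UMIs were summed per library and population with at least 20 cells and tested with limma 3.58.1 on log2(CPM + 5), with trimmed-mean scaling, precision weights and Benjamini-Hochberg adjustment over all genes that passed a filter (10 UMIs at the median total in 2 libraries and 15 UMIs in all). No count model was used, although whole UMIs were recovered from the deposited natural log values. The 9 enzymes were all named by rule, and pathway genes by the size of their epithelial-like difference; some genes and alleles that the rules would name are not reported here. Members and lists were chosen with earlier results of these data known, and the comparison of the cluster led by Epcam was added after its values were seen. On simulated data for the epithelial-like comparison (11993 genes), 34 of 100 genes changed 2-fold and 99 of 100 changed 4-fold were recovered, and 22 unchanged genes were called. The simulation assumed the same spread between libraries for every gene, not taken from these data. Changed genes were drawn above a minimum level, so recovery at lower levels was not measured. Intervals cover counting error only.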

Additional observations from a re-analysis of the deposited data

How the results depend on the processing

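No paired analysis was possible because the KPPC libraries carry codes in place of replicate numbers. No enzyme passed the test in the epithelial-like, fibroblast-like, mesothelial-like or Cdkn2a Hmga2 cells, or in the differences between populations, under any alternative run. Over all cells the difference was -0.43 for Mvk and 0.51 for Pmvk without KPPCN 1, and the calls of both enzymes changed in that run. Among the runs with 1 library left out, it also had the most genes passing over all cells. It leaves a lone KPPCN library, so genotype cannot be told apart from library, and no conclusion is drawn from these calls. Of 958 values of single enzymes under alternatives (pseudocount, filter, scaling, weights, clustering, doublets, depth, cells or libraries left out), 903 kept their direction and call and 53 changed direction, 16 of these in mesothelial-like cells, where KPPCN had few cells, and 15 in the Cdkn2a Hmga2 against epithelial-like difference. The causes were not tested.

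In epithelial-like cells the median difference of the 9 was 0.26 with each cell weighing the same, 0.96 in the cluster led by Epcam, 0.93 there without cells rich in endocrine markers (chosen after seeing the data), and 0.34 to 0.81 with 1 library left out (lowest without KPPCN 2). Thinned to 1000 UMIs per cell it was -0.075, with Acat2 at -0.51, Pmvk at -0.59, Idi1 at -0.93 and Fdft1 at -0.075. These values rest on 37 and 35 UMIs of the 9 enzymes in KPPCN 1 and 2, with 1 and 0 UMIs for the lowest enzyme. The same thinned sums in plain CPM were 430.2 and 897 in KPPCN, against 425 to 492 in KPPC, so they do not show a lower arm. The reason for the unlike direction was not tested. In fibroblast-like cells the median difference ran from -0.49 to -0.13 with 1 library left out, Mvk from -0.54 to 0.045, Mvd from -0.39 to 0.00095 and Ggps1 from -0.26 to 0.10, and Mvk was 0.33 when thinned. In the Cdkn2a Hmga2 clusters the median ran from 0.062 (without KPPCN 1) to 0.70 (without KPPCN 2), Hmgcs1 from -0.22 to 0.054, Idi1 from -0.066 to 0.45 and Ggps1 from -0.41 to 0.062, and Idi1 was -0.12 with each cell weighing the same. In mesothelial-like cells the median was 0.49 when thinned, from only 20 and 3 UMIs of the 9 enzymes in KPPCN 1 and 2. It ran from -0.64 (without KPPCN 1) to 0.53 (without KPPCN 2).

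For the epithelial-like against fibroblast-like gap the thinned median was -0.088, with Mvk at -0.30 and Pmvk at -0.25. It rests on the same 37 and 35 epithelial-like UMIs in KPPCN. At clustering resolution 0.5 the value of Ggps1 was 0.054. The median of the Cdkn2a Hmga2 against epithelial-like difference ran from -0.23 (without KPPCN 1) to 0.43 (without KPPCN 2).

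With 1 library left out, genes passing ran from 0 to 3269 over all cells (most without KPPCN 1), 0 to 6 in epithelial-like, 0 to 3 in fibroblast-like, 0 to 8 in mesothelial-like and 0 to 97 in Cdkn2a Hmga2 cells, 0 to 3 for the first difference and 0 to 25 for the second. Over all cells 3 passed without trimmed means, 85 when thinned and 99 with each cell weighing the same. In mesothelial-like cells 0 passed with a pseudocount of 1 CPM, with no filter on low counts, when thinned and with doublets kept, and 1 passed at clustering resolution 0.5. A lone KPPCN library was assumed to vary like KPPC. In simulated data with the same assumed spread, 34, 31 and 41 of 100 genes changed 2-fold were recovered in the epithelial-like, fibroblast-like and Cdkn2a Hmga2 comparisons.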
